A study of Mus musculus with 69 samples.

Results

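Injured tubule markers are genes whose transcripts appear in, or rise in, the epithelium of the damaged kidney tubule. The set described here holds 8 genes of the 24411 in the count table, chosen by symbol: Havcr1, Cd44, Lcn2, Spp1, Clu, Krt20, Vim and Sox9. All 8 had enough counts to be tested. Their levels were read in newly made RNA of the mouse collecting duct after ischemia and after volume depletion, with 3 questions: which markers responded, whether they answered both stimuli, and whether they rose and fell together from library to library.

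The RNA came from mice with a floxed-stop Uprt transgene at the Rosa26 locus, a uracil phosphoribosyltransferase that lets a cell build the uracil analog 4-thiouracil (4-TU) into new RNA. One copy was carried with a Cre driver, and the genotypes are labelled Hoxb7Cre;UPRTf/+ and Atp6b1v1Cre;UPRTf/+. Hoxb7Cre acts along the collecting duct, and the second driver, called Atp6v1b1Cre here, acts in intercalated cells and in cells with features of both principal and intercalated cells. Every mouse, controls included, carried the transgene and was given 430 mg/kg of 4-TU 4 h before dissection. The tagged RNA was biotinylated and pulled down on streptavidin beads. The ischemic mice (iAKI) had both renal pedicles clamped for 10 min and were studied 24 h later, and the volume depleted mice (vAKI) had food and water withheld for 72 h. At 5.5 months of age, males gave 4 control, 4 ischemic and 3 depleted Hoxb7Cre libraries and 4, 3 and 4 Atp6v1b1Cre libraries. Females of that age gave 4, 3 and 4 Hoxb7Cre libraries and 4, 3 and 3 Atp6v1b1Cre libraries. Controls of 3 months added 2 female Hoxb7Cre and 3 male Atp6v1b1Cre libraries, which makes 48 pulldowns. Another 21 libraries of total kidney RNA, not pulled down, came from control mice of these genotypes, and total RNA of injured kidneys was not analysed here. The labels do not say whether these 21 share mice with the control pulldowns.

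Havcr1 (KIM-1) is a membrane receptor for phosphatidylserine by which injured proximal tubule cells take up dying cells, and Lcn2 (NGAL) is a secreted protein that binds iron-carrying siderophores and is made in the distal nephron. Spp1 (osteopontin) and Clu (clusterin) are secreted proteins, an integrin and CD44 ligand and a chaperone, and Cd44 is a receptor for hyaluronan and osteopontin. Krt20 and Vim encode intermediate filament proteins of epithelial and mesenchymal cells, and Sox9 is a transcription factor of nephron development that returns in repairing tubules. Havcr1, Krt20 and Sox9 share chr11, and Lcn2, Cd44 and Vim share chr2, each at a separate place. In GRCm38, the build of the alignment, Havcr1 lies on chr11:46735080-46779578 (+), Krt20 on chr11:99428403-99438150 (−), Sox9 on chr11:112782224-112787760 (+), Lcn2 on chr2:32384633-32388252 (−), Cd44 on chr2:102811141-102901665 (−), Vim on chr2:13573927-13582826 (+), Clu on chr14:65968483-65981547 (+) and Spp1 on chr5:104435118-104441050 (+).

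The sequence upstream of the start was compared for 6 of the 8 members, those with an entry in the RefSeq promoter table (GRCm38.p6). The 3 printed here belong to the markers that, with Havcr1, were called higher after ischemia than after depletion in both drivers. Each is the 250 bases before the most 5′ listed transcription start, read on the strand of the gene, with capitals on matches to the motifs searched.

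Krt20: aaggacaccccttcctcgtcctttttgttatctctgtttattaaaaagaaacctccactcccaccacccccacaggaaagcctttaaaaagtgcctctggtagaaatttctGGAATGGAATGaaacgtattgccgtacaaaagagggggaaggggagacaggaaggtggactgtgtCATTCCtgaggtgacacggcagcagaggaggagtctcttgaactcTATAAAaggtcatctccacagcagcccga

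Spp1: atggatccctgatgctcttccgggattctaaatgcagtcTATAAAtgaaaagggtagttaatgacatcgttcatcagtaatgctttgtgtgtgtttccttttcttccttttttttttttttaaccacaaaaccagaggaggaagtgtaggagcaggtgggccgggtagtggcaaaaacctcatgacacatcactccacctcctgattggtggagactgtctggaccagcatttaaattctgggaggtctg

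Lcn2: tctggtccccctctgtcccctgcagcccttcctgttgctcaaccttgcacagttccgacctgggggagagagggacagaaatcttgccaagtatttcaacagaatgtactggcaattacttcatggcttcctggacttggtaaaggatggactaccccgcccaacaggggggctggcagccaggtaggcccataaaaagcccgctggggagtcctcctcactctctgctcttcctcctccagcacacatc

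The windows are chr11:99438154-99438403 on the minus strand for Krt20, chr5:104434861-104435110 on the plus strand for Spp1 and chr2:32387740-32387989 on the minus strand for Lcn2. The Lcn2 window lies inside the gene span given above, which reaches farther upstream than the RefSeq start. The same holds for the windows of Vim and Havcr1. Both strands were searched for the TATA box as TATAAA. The letters used for AP-1 were TGANTCA. For STAT factors they were TTCNNNGAA. For TEAD factors the word GGAATG was used. Krt20 held TATAAA 29 bases before its start and GGAATG at 139 and 134 bases, where the copies overlap by a base, and on the other strand at 74. Spp1 held TATAAA 211 bases before this start, and Lcn2 held none of the 4. Vim held TATAAA 32 bases before its start. Of the 32851 promoters of the table, windows of the same length, 12.4% held the TATA word, 6.75% that of AP-1, 7.02% that of STAT and 12.6% that of TEAD. None of the 6 members' windows held the AP-1 or STAT letters. These are matches of letters and not mapped sites.

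Library totals ran from 12618062 to 30305464 counts. Levels are CPM, counts scaled to a common library size over the 69 libraries. A gene was called changed where its log2 fold change was 1 or more in size and its p, from the quasi-likelihood test of edgeR, was under 0.05 after Benjamini-Hochberg adjustment over 21175 genes. Every adjusted p given here is from edgeR unless DESeq2 is named. The pulldowns kept some RNA of other segments. The summed level of 8 proximal tubule markers was 3345 to 5219 CPM in male Hoxb7Cre controls and 3625 to 5515 CPM in male Atp6v1b1Cre controls, against 17483 to 22668 CPM in male total kidney. The library numbers fall into 3 series, A to C. All injured Hoxb7Cre libraries are of series A, while their controls are of more than 1 series.

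Before injury the members spanned a wide range of levels per kilobase of exon. Spp1 stood highest in every pool, at 257 ± 70.5 CPM per kb (SD, n = 10) in Hoxb7Cre controls, 233 ± 59.9 (SD, n = 11) in Atp6v1b1Cre controls and 991 ± 431 (SD, n = 21) in total kidney. Clu followed at 30.0 ± 10.5, 28.03 ± 8.41 and 124 ± 32.8 CPM per kb in the same pools. Vim came next at 4.39 ± 1.37, 6.31 ± 0.707 and 11.0 ± 1.89 CPM per kb. The other 5 members stayed below 3 CPM per kb on average in the pulldowns, and their SDs overlapped between neighbours in the order: in Hoxb7Cre Lcn2 at 2.59 ± 1.37, Havcr1 at 1.92 ± 2.54, Krt20 at 1.41 ± 0.609, Cd44 at 0.945 ± 0.315 and Sox9 at 0.552 ± 0.308. In Atp6v1b1Cre controls the order of these 5 was Cd44 at 1.38 ± 0.344, Krt20 at 1.35 ± 1.12, Lcn2 at 0.767 ± 0.442, Sox9 at 0.495 ± 0.189 and Havcr1 at 0.434 ± 0.475 CPM per kb.

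Against total kidney RNA, the secreted proteins Spp1 and Clu and the receptor Havcr1 were lower in the pulldowns of control mice with either driver. The fit took all libraries as independent, so a possible pairing of pulldown and total RNA by mouse was left out. In Hoxb7Cre, 5 of 8 members were called, where 32.5% of all genes were. Spp1 had a log2 fold change of -1.89 (SE 0.13, adjusted p = 1.78e-17), Clu -2.02 (SE 0.16, adjusted p = 1.33e-15), Vim -1.32 (SE 0.10, adjusted p = 1.03e-16) and Havcr1 -1.74 (SE 0.76, adjusted p = 0.0417), and Sox9 was higher at 1.01 (SE 0.20, adjusted p = 1.74e-05). In Atp6v1b1Cre 5 were called, against 27.7% of all genes. Spp1 had a log2 fold change of -1.85 (SE 0.13, adjusted p = 1.49e-17), Clu -2.05 (SE 0.15, adjusted p = 2.53e-16), Havcr1 -3.52 (SE 0.88, adjusted p = 0.000513) and Lcn2 -1.43 (SE 0.28, adjusted p = 1.33e-05), and the receptor Cd44 was higher at 1.35 (SE 0.14, adjusted p = 2.08e-11). With no fold threshold all 8 would be called there. In males alone Havcr1 in Hoxb7Cre was at -1.57 (adjusted p = 0.0593) and Sox9 at 0.60 (adjusted p = 0.051), and in females alone Havcr1 was at -1.91 (adjusted p = 0.171). The median of Havcr1 was 1.99 CPM in Hoxb7Cre controls and 2.58 CPM in total kidney, so its typical levels lay close. In bulk RNA, fewer cells of a type and less RNA per cell cannot be told apart. The pulldowns hold RNA tagged over 4 h and total kidney RNA of any age, so the turnover of a transcript cannot be told apart either. The paper adds that the method may overrepresent RNA rich in uracil. Between the drivers, only Lcn2 of the 8 was called, lower in Atp6v1b1Cre by a log2 fold change of -1.74 (SE 0.31, adjusted p = 3.74e-05), where 4.11% of all genes were called. Lcn2 was at 6.80 ± 3.603 CPM (SD, n = 10) in Hoxb7Cre and 2.01 ± 1.16 CPM (SD, n = 11) in Atp6v1b1Cre controls. Among females alone it was not called.

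Havcr1 varied widely among uninjured kidneys. In total kidney RNA of 5.5 months it ran from 1.45 through a median of 8.32 to 23.1 CPM in 8 males and from 0.131 through a median of 1.07 to 41.2 CPM in 8 females. The 2 females of 3 months had 76.1 and 90.0 CPM. The 2 Hoxb7Cre pulldowns of 3-month females had 12.0 and 17.8 CPM, above the 4 older female controls at 0.0772, 0.439, 0.561 and 2.38 CPM. In males of 3 months total kidney had 2.29 to 2.63 CPM in 3 libraries, within the range of the older males. Age was not tested. Spp1 lay apart by sex in total kidney of 5.5 months, from 792 to 1096 CPM in 8 males and from 1899 to 2829 CPM in 8 females, while the control pulldowns of the sexes overlapped, at 312 to 412 and 302 to 662 CPM in Hoxb7Cre.

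After ischemia, 6 of 8 members were higher in male Hoxb7Cre pulldowns, where 1.52% of all genes were called higher. The median log2 fold change of the members was 2.27, against 0 over all genes tested. The receptors, the secreted proteins Lcn2 and Spp1, Krt20 and Sox9 rose, and Clu and Vim did not pass the test.

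Havcr1 was at 1.47, 1.60, 3.01 and 5.06 CPM in the 4 male Hoxb7Cre controls and at 42.2, 49.2, 176 and 215 CPM in the 4 ischemic libraries. The lowest ischemic library lay above every control, with a log2 fold change of 5.45 (SE 0.84, adjusted p = 0.000891). Cd44 was at 3.94, 6.15, 6.32 and 7.42 CPM in controls and 9.20, 10.9, 11.1 and 18.5 CPM after ischemia, apart but by much less, with a log2 fold change of 1.08 (SE 0.23, adjusted p = 0.00828). It fell under the fold threshold without control replicate 5, at 0.93, with library series as a covariate, at 0.92, and in series A alone, at 0.87.

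Lcn2 was at 6.57, 7.78, 12.4 and 13.1 CPM in controls and 23.1, 28.8, 55.4 and 164 CPM in ischemic libraries, with a log2 fold change of 2.78 (SE 0.63, adjusted p = 0.0107). Spp1 was at 312, 315, 391 and 412 CPM and rose to 475, 673, 1345 and 3088 CPM, with a log2 fold change of 1.98 (SE 0.49, adjusted p = 0.017). Neither group overlapped its controls, and for both genes the same library, ischemic replicate 5, was the highest. Without that library Lcn2 was at 1.84 (adjusted p = 0.0700), Spp1 at 1.21 (adjusted p = 0.12) and Cd44 at 0.80 (adjusted p = 0.0506), and 3 members were called. Without control replicate 3 Spp1 was at 1.92 (adjusted p = 0.0604). Clu overlapped, at 76.6, 93.1, 104.4 and 144 CPM in controls and 115, 128, 164 and 403 CPM after ischemia, with a log2 fold change of 0.97 (SE 0.34, adjusted p = 0.0968). In series A alone Clu was called, at 1.24, in place of Cd44.

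Krt20 was at 1.65, 1.73, 2.34 and 2.40 CPM in controls and 9.40, 15.7, 17.8 and 34.5 CPM in ischemic libraries, with a log2 fold change of 3.26 (SE 0.70, adjusted p = 0.00851). The other filament gene, Vim, had 15.3, 16.1, 17.4 and 18.02 and 14.2, 18.3, 22.1 and 36.5 CPM, so the ischemic range held that of the controls, with a log2 fold change of 0.46 (SE 0.24, adjusted p = 0.286). Sox9 was at 0.844, 1.16, 2.02 and 2.11 CPM in controls and 4.95, 8.10, 11.2 and 12.1 CPM after ischemia, without overlap, with a log2 fold change of 2.57 (SE 0.47, adjusted p = 0.00282). With both sexes in the fit Sox9 was at 0.97 (adjusted p = 0.39).

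**Figure D1:**
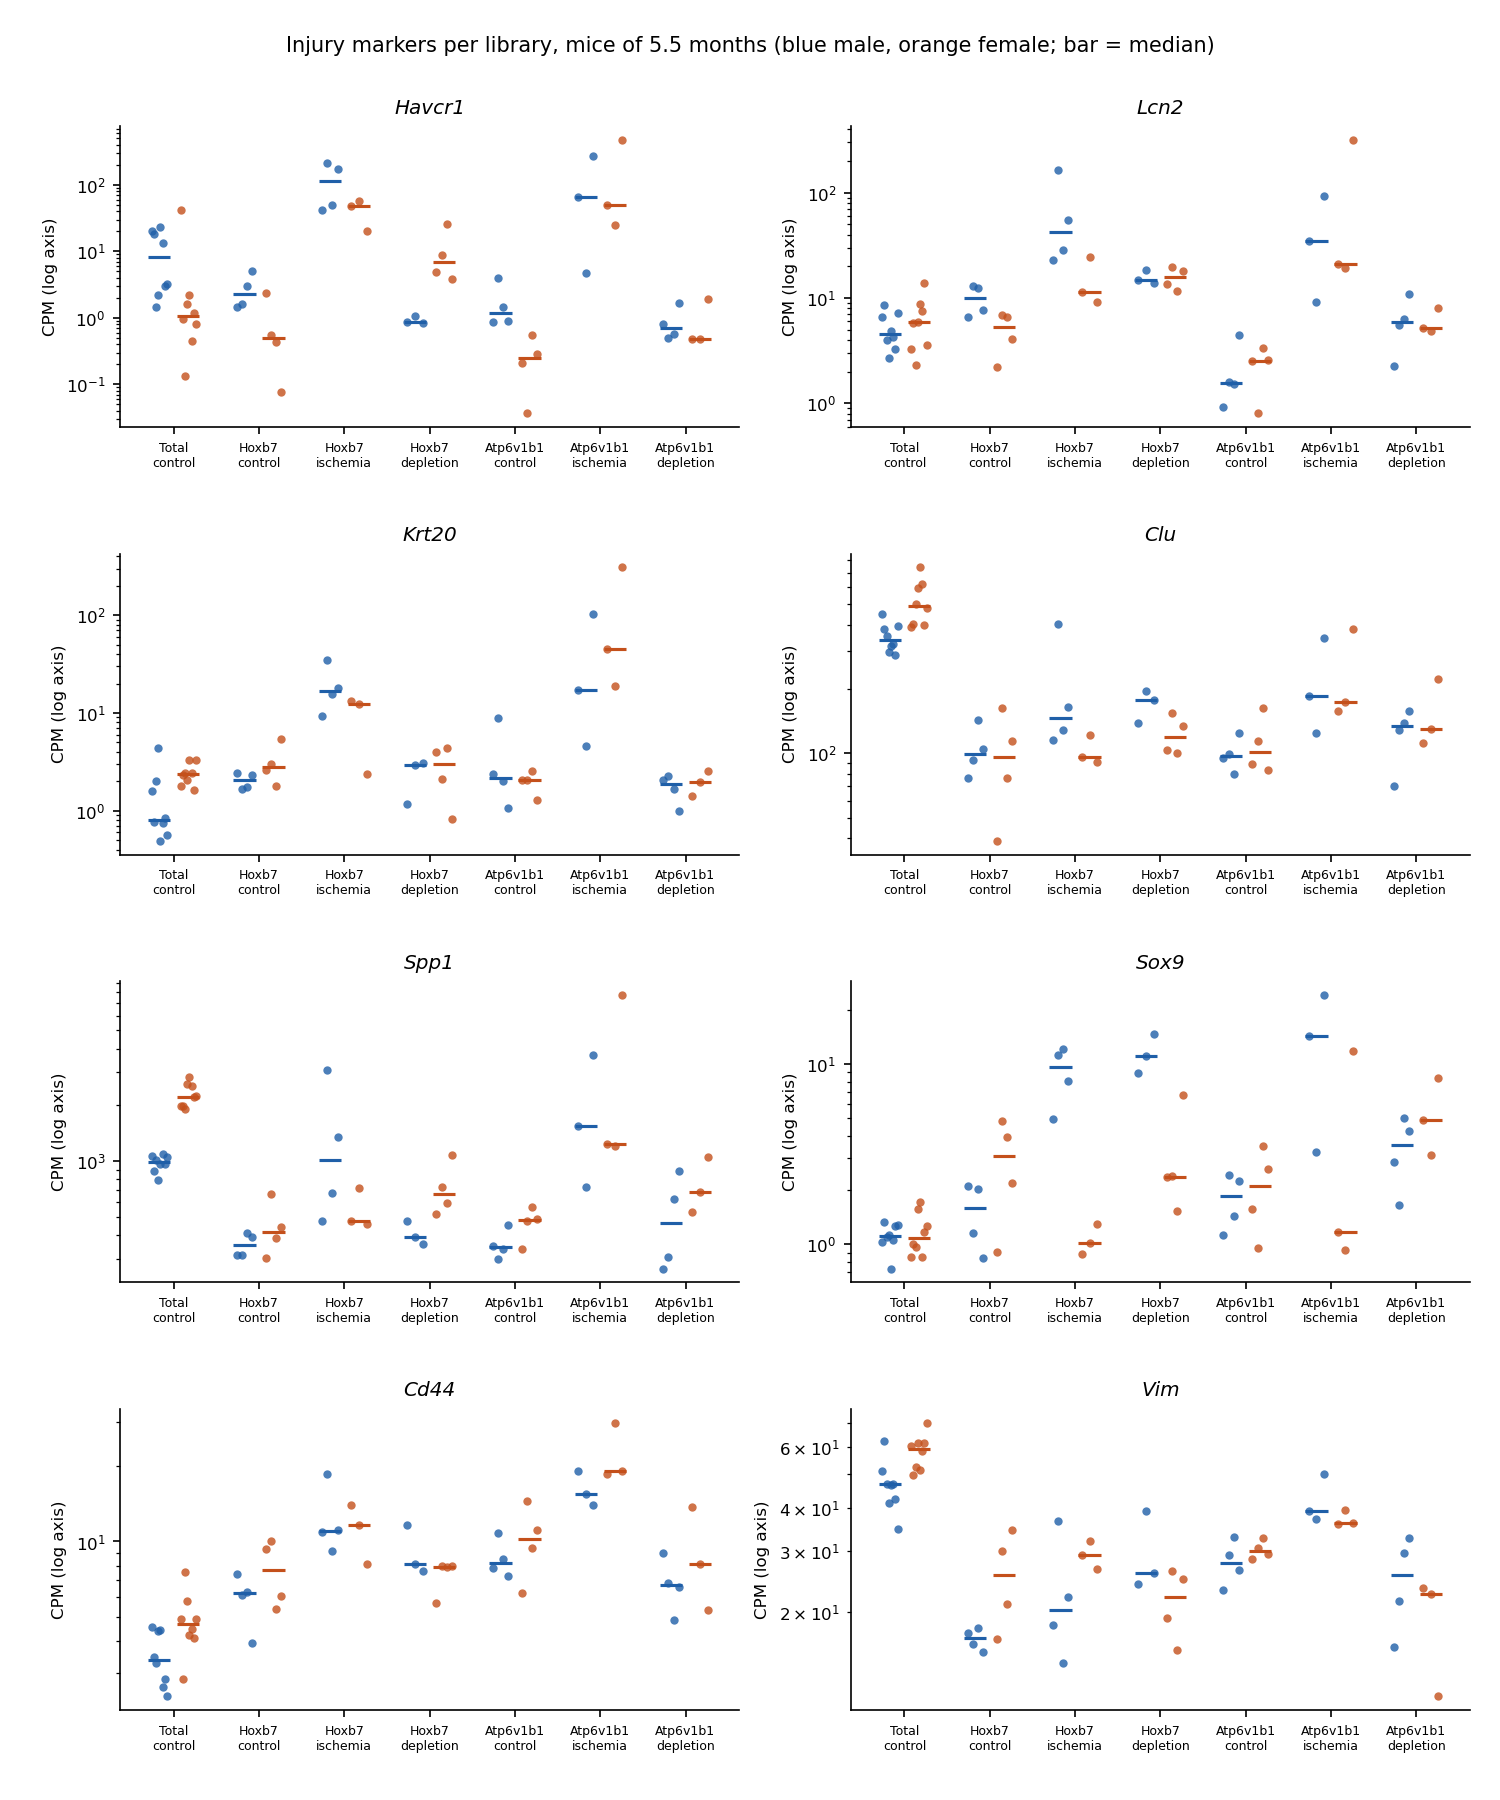
CPM of each marker on a log axis in the libraries of 5.5-month mice, with a point for each library (blue male, orange female), a bar at the median, and total kidney of controls at the left. Ischemic Havcr1 ran from 42.2 to 215 CPM in male Hoxb7Cre against 1.47 to 5.06 CPM in controls, while male Sox9 was also high after depletion, at 8.91 to 14.8 CPM.

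Ischemic replicate 5 was the highest of its group for 7 of 8 members, all but Sox9. It also had the highest summed level of 7 fibroblast markers, 322 CPM. The other ischemic libraries had 131, 124 and 194 CPM and the controls 40.3 to 91.98 CPM, and 5 of the 7 fibroblast markers were called higher. The second highest, replicate 7, was second for the same members, Havcr1, Lcn2, Krt20, Spp1, Clu, Cd44 and Vim. With both left out, a choice made after the values were seen, Havcr1 and Sox9 alone of the 8 were called. The same 2 groups had neutrophil marker sums of 0.375 to 1.26 and 1.40 to 3.26 CPM, controls first, and macrophage sums of 51.6 to 73.7 and 71.4 to 89.4 CPM. The proximal tubule sum was 2103 CPM in replicate 5 and 2103 to 4179 CPM over the ischemic group, against 3345 to 5219 CPM in controls. The sum of 8 markers of principal cells, which lie in the Hoxb7Cre domain, was 1072 to 1315 CPM after ischemia against 2802 to 3646 CPM in controls. The part of cell types in these results was not tested.

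In male Atp6v1b1Cre pulldowns 5 of 8 members were higher after ischemia, against 1.14% of all genes, and the median of the members was 2.70. Havcr1 was at 0.879, 0.904, 1.44 and 4.02 CPM in controls and 4.76, 64.9 and 273 CPM in the 3 ischemic libraries, with a log2 fold change of 6.03 (SE 0.89, adjusted p = 0.000678). Ischemic replicate 4 stood close to the highest control, while replicates 1 and 5 were far above. Lcn2 rose from 0.921, 1.53, 1.60 and 4.42 CPM to 9.11, 35.2 and 93.9 CPM, with a log2 fold change of 4.41 (SE 0.71, adjusted p = 0.00107). Spp1 was at 297, 338, 352 and 455 CPM in controls and 722, 1536 and 3689 CPM after ischemia, with a log2 fold change of 2.46 (SE 0.52, adjusted p = 0.00577). For each of the 3 genes the ischemic libraries kept the same order, replicate 4 lowest and replicate 5 highest. Without replicate 5 Havcr1 was at 4.32, Lcn2 at 3.36 and Spp1 at 1.65, all still called. Without control replicate 9 Havcr1 was at 6.74, and without control replicate 11 Lcn2 was at 5.11.

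Krt20 was at 1.07, 1.99, 2.34 and 8.86 CPM in Atp6v1b1Cre controls and 4.62, 17.1 and 101.99 CPM in ischemic libraries, with a log2 fold change of 3.57 (SE 0.71, adjusted p = 0.00427). The groups overlapped, since control replicate 9 exceeded ischemic replicate 4, and without ischemic replicate 5 the value was 1.65 (adjusted p = 0.0773), and without that control it was 4.53. In series A alone it was 0.97 (adjusted p = 0.34). Sox9 was at 1.13, 1.44, 2.24 and 2.42 CPM and then 3.24, 14.2 and 24.2 CPM, with a log2 fold change of 2.94 (SE 0.48, adjusted p = 0.00107), and 2.28 without ischemic replicate 5. Clu had 1.13 (SE 0.37, adjusted p = 0.0558), Cd44 0.90 (SE 0.24, adjusted p = 0.023) and Vim 0.59 (SE 0.25, adjusted p = 0.152) as log2 fold changes, short of a call on p or on size, though the lowest ischemic library lay above the highest control for each of them, for Clu by less than 1 CPM. The result for Clu lay near the threshold. DESeq2 called it, at 1.12 (adjusted p = 0.023), as did edgeR with library series as a covariate (adjusted p = 0.0211), with 25 males (adjusted p = 0.00685), with both sexes (adjusted p = 0.00678), without the 2 Hoxb7Cre libraries named above (adjusted p = 0.0173), and in 6 fits that each left out 1 library (adjusted p = 0.0153 to 0.049).

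The fibroblast sum was 217, 168 and 319 CPM in ischemic replicates 1, 4 and 5 against 132 to 208 CPM in controls, with 1 of 7 markers called higher. The neutrophil sum was 2.27 to 4.95 CPM against 1.61 to 2.81 CPM, with Elane and Mpo at 0 counts in every ischemic library. The macrophage sum was 115 to 232 CPM against 127 to 172 CPM. The proximal tubule sum was lower after ischemia, at 1609 to 2059 CPM against 3625 to 5515 CPM in controls. By the paper, ischemia lowers Slc34a1, Slc5a12 and Lrp2, which are in this sum, and raises Havcr1 within proximal tubule cells. The sum therefore cannot gauge RNA from injured proximal cells, whose part was not tested.

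After volume depletion 1 of 8 members was called higher in Hoxb7Cre males, the transcription factor Sox9, where 9.61% of all genes were called higher. The median log2 fold change of the members was 0.64. Sox9 was at 0.844, 1.16, 2.02 and 2.11 CPM in controls and 8.91, 11.1 and 14.8 CPM in the 3 depleted libraries, clear of the controls, with a log2 fold change of 2.92 (SE 0.49, adjusted p = 8.32e-05). With both sexes in the fit it was not called, at 1.37 (adjusted p = 0.0988). Vim was at 24.1, 25.9 and 39.04 CPM, above its controls at 15.3, 16.1, 17.4 and 18.02 CPM, with a log2 fold change of 0.83 (SE 0.26, adjusted p = 0.0132), under the fold threshold. Lcn2 was at 13.8, 14.9 and 18.3 CPM and Cd44 at 7.61, 8.14 and 11.6 CPM, just above their highest controls at 13.1 and 7.42 CPM. Neither passed the test, with log2 fold changes of 0.66 (SE 0.64, adjusted p = 0.46) and 0.62 (SE 0.25, adjusted p = 0.0553).

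Havcr1 went the other way in the depleted males, at 0.822, 0.856 and 1.05 CPM against 1.47, 1.60, 3.01 and 5.06 CPM in controls. These ranges did not overlap, yet the log2 fold change of -1.60 (SE 1.00, adjusted p = 0.237) did not pass, and with both sexes in the fit it was 2.12. Krt20 had 1.16, 2.93 and 3.04 CPM, with a log2 fold change of 0.24 (SE 0.77, adjusted p = 0.875). Spp1 had 361, 393 and 478 CPM, with a log2 fold change of 0.21 (SE 0.51, adjusted p = 0.821), and Clu 138, 177 and 196 CPM, with a log2 fold change of 0.71 (SE 0.37, adjusted p = 0.139). In series A alone 2 members were called, Sox9 and, at 1.02, Clu. With library series as a covariate Clu was called too, at 1.02 (adjusted p = 0.0173). The fibroblast sum of the depleted libraries was 100.5 to 143 CPM and 1 of its 7 markers was called higher, and the proximal tubule sum was 3352 to 3889 CPM. The principal cell sum was 1174 to 1261 CPM, against 2802 to 3646 CPM in controls, and its part was not tested.

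In Atp6v1b1Cre males edgeR called 0 of 8 members after depletion, with 1 at an unadjusted p under 0.05, and DESeq2 called 0. Of all genes, 5.15% were called. Lcn2 was closest, at 2.25, 5.499, 6.33 and 10.998 CPM against 0.921, 1.53, 1.60 and 4.42 CPM in controls, overlapping by the highest control. Its log2 fold change was 1.52 (SE 0.67, adjusted p = 0.135), and without that control, replicate 11, it was 2.22 (adjusted p = 0.0486). Sox9 was at 1.66, 2.85, 4.23 and 5.05 CPM with 0.91 (SE 0.47, adjusted p = 0.205), Spp1 at 265, 305, 629 and 887 CPM with 0.54 (SE 0.47, adjusted p = 0.48) and Clu at 69.95, 129, 139 and 158 CPM with 0.33 (SE 0.34, adjusted p = 0.56), each overlapping its controls. Havcr1 was at 0.497, 0.576, 0.81 and 1.68 CPM, with a log2 fold change of -1.02 (SE 0.97, adjusted p = 0.518). An interval of 2 SE either way of this value takes in a lower as well as a higher level. The sum of 8 intercalated cell markers was 589 to 800 CPM in these depleted libraries, against 936 to 1352 CPM in controls, and its part was not tested.

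**Figure D2:**
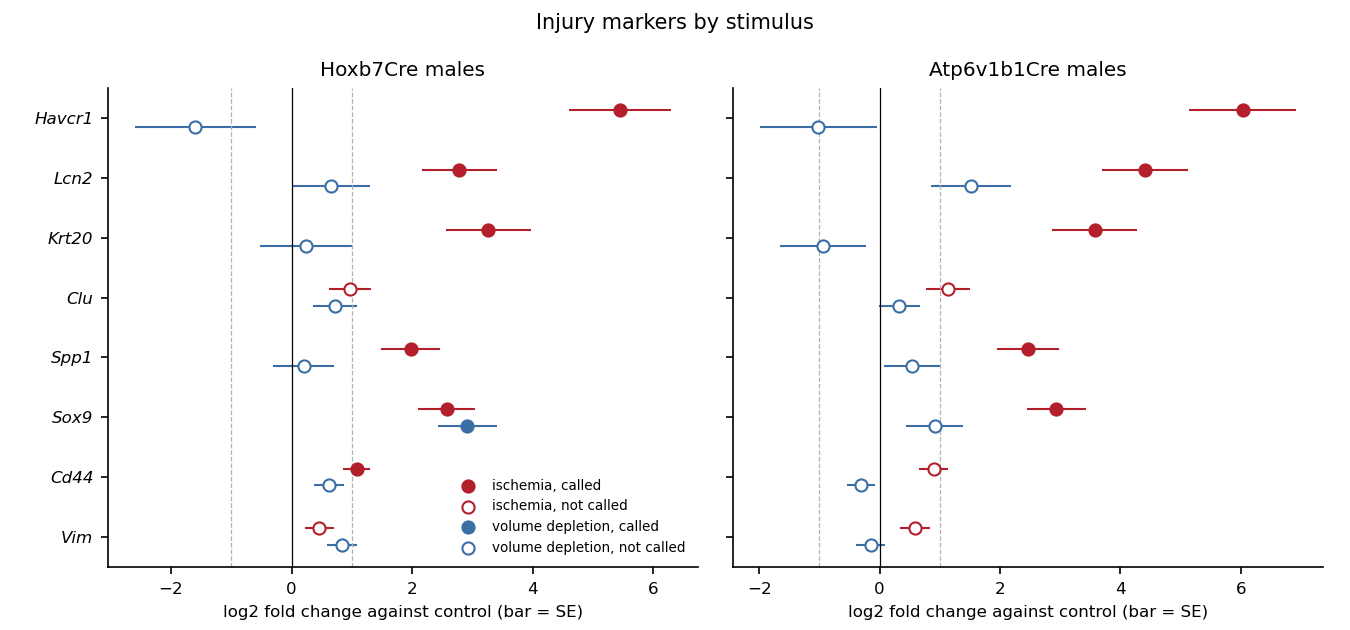
Log2 fold change of each marker against controls in males, with bars of 1 SE, after ischemia (red) and after volume depletion (blue), in Hoxb7Cre at the left and Atp6v1b1Cre at the right, with filled points for calls and dashed lines at the fold threshold. Havcr1 stands at 5.45 and 6.03 after ischemia and at -1.60 and -1.02 after depletion, while Sox9 in Hoxb7Cre stands at 2.57 and 2.92.

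The stimuli were then set against each other directly, without the controls. In Hoxb7Cre males 4 of 8 members were higher after ischemia than after depletion, where 6.55% of all genes were. Havcr1 had a log2 fold change of 7.04 (SE 1.07, adjusted p = 2.95e-05), Krt20 3.01 (SE 0.77, adjusted p = 0.00412), Lcn2 2.12 (SE 0.68, adjusted p = 0.0179) and Spp1 1.77 (SE 0.54, adjusted p = 0.013). For Spp1 the ranges overlapped narrowly, since the lowest ischemic library had 475 CPM and the highest depleted library 478 CPM. Lcn2 and Spp1 were lost without ischemic replicate 5, at 1.18 (adjusted p = 0.142) and 1.00 (adjusted p = 0.104), and without depleted replicate 7, at 2.04 (adjusted p = 0.0696) and 1.69 (adjusted p = 0.0567). Without depleted replicate 4 Lcn2 was at 2.07 (adjusted p = 0.059). Sox9 had a log2 fold change of -0.35 (SE 0.45, adjusted p = 0.603) and Cd44 0.46 (SE 0.25, adjusted p = 0.167). For Sox9, 2 SE either way of the estimate spans a lower as well as a higher level after ischemia.

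In Atp6v1b1Cre males 6 of 8 were higher after ischemia than after depletion, against 4.39% of all genes. Havcr1 had a log2 fold change of 7.05 (SE 0.96, adjusted p = 1.80e-05), Krt20 4.51 (SE 0.75, adjusted p = 0.000137), Lcn2 2.89 (SE 0.66, adjusted p = 0.0022), Sox9 2.02 (SE 0.47, adjusted p = 0.00228), Spp1 1.91 (SE 0.51, adjusted p = 0.00652) and Cd44 1.21 (SE 0.24, adjusted p = 0.00074). Clu at 0.80 (SE 0.37, adjusted p = 0.104) and Vim at 0.74 (SE 0.25, adjusted p = 0.0307) were not called. Without ischemic replicate 5, Spp1 was at 1.11 (adjusted p = 0.1), and with both sexes in the fit Sox9 was at 0.93 (adjusted p = 0.206). Also without that library, and still called, Havcr1 was at 5.34, Krt20 at 2.61, Lcn2 at 1.85 and Sox9 at 1.38. Havcr1, Krt20, Lcn2 and Spp1 were thus called between stimuli in both drivers, and Sox9 and Cd44 in Atp6v1b1Cre, with no test of that difference between drivers.

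The response to each stimulus was compared between drivers as a difference of log2 fold changes, Atp6v1b1Cre minus Hoxb7Cre. For ischemia edgeR called 0 of 8 members, 0 had an unadjusted p under 0.05 and DESeq2 called 0, where 3.49% of all genes were called. Lcn2 differed most among them, by 1.62 (SE 0.90, adjusted p = 0.29). With both sexes in the fit its difference was 2.73 (adjusted p = 0.0498). For depletion edgeR called 0, with 3 at an unadjusted p under 0.05, and DESeq2 called 1, where 2.93% of all genes were called. These 3 were Sox9 at -2.003 (SE 0.68, adjusted p = 0.0959), Vim at -0.98 (SE 0.35, adjusted p = 0.115) and Cd44 at -0.93 (SE 0.34, adjusted p = 0.126). Each had the higher log2 fold change in Hoxb7Cre, while in Atp6v1b1Cre Vim was at -0.15 (SE 0.24, adjusted p = 0.733) and Cd44 at -0.31 (SE 0.23, adjusted p = 0.405). Sox9 was called by DESeq2 (adjusted p = 0.0325), by edgeR without ischemic Atp6v1b1Cre replicate 4 (adjusted p = 0.0315) and in series A alone, at -2.47 (adjusted p = 0.044), where Vim was called too, at -1.32 (adjusted p = 0.0436).

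In female Hoxb7Cre pulldowns 1 of 8 members rose after ischemia, the receptor Havcr1, against 2.08% of all genes called in either direction. It was at 19.99, 47.3 and 56.4 CPM after ischemia and 0.0772, 0.439, 0.561 and 2.38 CPM in controls, with a log2 fold change of 5.58 (SE 0.98, adjusted p = 0.0122). It was not called without ischemic replicate 2, control replicate 9 or control replicate 10, at 5.19 to 5.38 (adjusted p = 0.0527 to 0.055), and without control replicate 1 it was at 6.83. Without ischemic Atp6v1b1Cre replicate 6, which shares the fit, Lcn2 was called as well, at 1.60 (adjusted p = 0.0292). Lcn2 at 9.24, 11.4 and 24.4 CPM lay above its controls at 2.22, 4.09, 6.63 and 6.88 CPM but had a log2 fold change of 1.61 (SE 0.68, adjusted p = 0.158). Krt20 was at 2.38, 12.4 and 13.4 CPM against 1.7998, 2.59, 3.03 and 5.36 CPM, with a log2 fold change of 1.56 (SE 0.69, adjusted p = 0.173). Sox9 was at 0.878, 1.01 and 1.30 CPM in ischemic and 0.903, 2.20, 3.95 and 4.82 CPM in control females, with a log2 fold change of -1.47 (SE 0.78, adjusted p = 0.259).

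In female Atp6v1b1Cre pulldowns 4 of 8 members rose after ischemia, against 0.581% of all genes. DESeq2 called 3, Havcr1, Krt20 and Cd44, and gave no adjusted p for Lcn2 or Spp1. Havcr1 was at 0.0365, 0.213, 0.287 and 0.544 CPM in controls, which is 1 to 12 counts a library, and at 25.1, 49.8 and 477 CPM after ischemia, with a log2 fold change of 9.41 (SE 1.17, adjusted p = 0.00106). Its size rests on these few control counts and on ischemic replicate 6, and it was at 10.01 without control replicate 12 and at 7.13 without the ischemic library. Krt20 went from 1.29, 2.04, 2.05 and 2.54 to 18.96, 45.3 and 309 CPM, with a log2 fold change of 5.94 (SE 0.78, adjusted p = 0.00106), and Lcn2 from 0.803, 2.51, 2.59 and 3.35 to 19.4, 21.03 and 319 CPM, with a log2 fold change of 5.68 (SE 0.78, adjusted p = 0.00163). Ischemic replicate 6 exceeded its group mates by several fold in each case, and without it Krt20 was at 4.01 and Lcn2 at 3.12, both still called.

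Spp1 followed, from 339, 475, 491 and 569.5 to 1203, 1229 and 7748 CPM, with a log2 fold change of 2.84 (SE 0.48, adjusted p = 0.00603) and 1.37 (adjusted p = 0.0214) without replicate 6. Cd44, from 6.26, 9.38, 11.2 and 14.5 to 18.6, 19.1 and 29.7 CPM, had 1.10 (SE 0.31, adjusted p = 0.0564) without overlap of its groups, and was called by DESeq2, at 1.09 (adjusted p = 0.0144), and by edgeR without replicate 6, at 1.22 (adjusted p = 0.0372). Sox9 was at 0.931, 1.17 and 11.8 CPM, of which 2 libraries lay below 3 of the 4 controls at 0.95, 1.58, 2.63 and 3.49 CPM and replicate 6 was above all 4, with a log2 fold change of 1.07 (SE 0.71, adjusted p = 0.415). Without replicate 6 its value was -1.04. The fibroblast sum of that library was 262 CPM, against 174 and 155 CPM in replicates 2 and 3 and 126 to 199 CPM in controls. Its part was not tested.

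After depletion no member was called in females. In Hoxb7Cre edgeR called 0, with 2 at an unadjusted p under 0.05, and DESeq2 called 1, where 0.0992% of all genes were called. Havcr1 was at 3.83, 4.87, 8.77 and 26.2 CPM, all 4 above the controls of 5.5 months at 0.0772, 0.439, 0.561 and 2.38 CPM, with a log2 fold change of 3.66 (SE 0.91, adjusted p = 0.173). Of these 4, 3 lay below both female controls of 3 months, which were at 12.0 and 17.8 CPM and were not in this fit. DESeq2 called it, at 3.64 (adjusted p = 0.0363), as did edgeR without control replicate 1, at 4.91 (adjusted p = 0.0379), or without ischemic Atp6v1b1Cre replicate 6, at 3.65 (adjusted p = 0.043). Lcn2 at 11.7, 13.6, 18.04 and 19.6 CPM also lay above all its controls, with a log2 fold change of 1.67 (SE 0.65, adjusted p = 0.528), and Spp1 had 0.70 (SE 0.44, adjusted p = 0.76). In Atp6v1b1Cre edgeR called 0, with 1 at an unadjusted p under 0.05, and DESeq2 called 0, where 9.89% of all genes were called. Lcn2 had 1.39 (SE 0.72, adjusted p = 0.188), Sox9 1.33 (SE 0.71, adjusted p = 0.201), Spp1 0.69 (SE 0.47, adjusted p = 0.329) and Vim -0.66 (SE 0.25, adjusted p = 0.0688). Without ischemic Atp6v1b1Cre replicate 6 Lcn2 was called, at 1.41 (adjusted p = 0.0256).

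The sexes differed in Hoxb7Cre, by a test of the difference itself over the 43 libraries of 5.5 months, female minus male. For ischemia 1 of 8 members was called, against 6.98% of all genes. The ischemic level of Sox9 lay above the controls in every male and within or below them in every female, with a difference of -4.05 (SE 0.96, adjusted p = 0.0099). For depletion 3 were called, against 10.8% of all genes. Havcr1 differed by 5.26 (SE 1.43, adjusted p = 0.0131), Sox9 by -2.80 (SE 0.88, adjusted p = 0.0279) and Vim by -1.10 (SE 0.36, adjusted p = 0.0323). Havcr1 was below its controls in every depleted male and above them in every depleted female. Sox9 was at 8.91, 11.1 and 14.8 CPM in depleted males and 1.53, 2.35, 2.38 and 6.74 CPM in depleted females. The female Hoxb7Cre controls are of series A, B and C and the male ones of A and B, so sex and library series are partly joined here. The only female control of series A, replicate 1, had the lowest Sox9 of its group, 0.903 CPM. The test of the sex difference was not run with library series as a covariate. With that covariate in the fit of females alone, the Sox9 response to ischemia in Hoxb7Cre was 0.016, no longer a fall. The principal cell sum of Hoxb7Cre females was 1146 to 2581 CPM in controls, 1550 to 3107 CPM after ischemia and 1219 to 2238 CPM after depletion. In males it was 2802 to 3646, 1072 to 1315 and 1174 to 1261 CPM in the same order. Its part in the sex differences was not tested. In Atp6v1b1Cre edgeR called 0 members for ischemia, with 3 at an unadjusted p under 0.05, and 0 for depletion, with 0, and DESeq2 called 0 members in the first and 0 in the second. Its background was 0% of all genes for each stimulus in edgeR, and 676 and 1756 genes had an unadjusted p under 0.05. The difference of Havcr1 was 3.41 (adjusted p = 1) for ischemia and 2.83 (adjusted p = 0.691) for depletion.

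**Figure D3:**
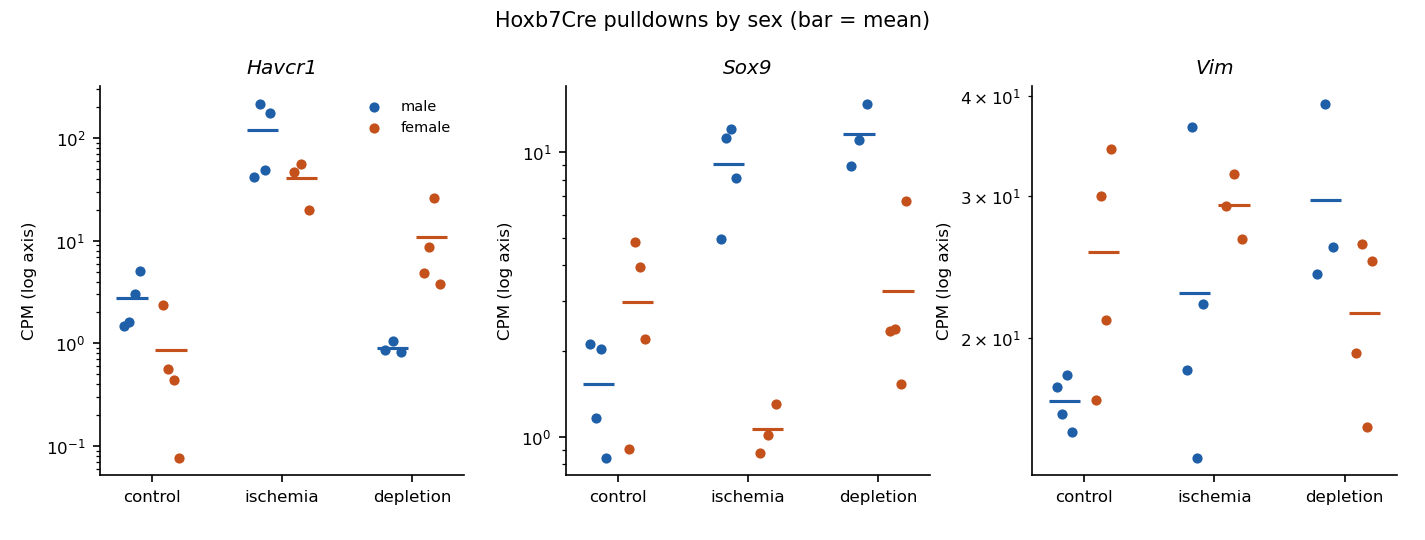
CPM on a log axis of Havcr1, Sox9 and Vim in Hoxb7Cre libraries of males and females by condition, a point for each library and a bar at the mean. Sox9 of ischemic males lies at 4.95 to 12.1 CPM and that of ischemic females at 0.88 to 1.30 CPM.

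Each injured library was then set against the 5.5-month controls of its driver and sex. The share of all genes above their controls in this way is not given here, so the counts are a description. A gene that does not change can also lie above all of a few controls. Among the 13 ischemic libraries, Havcr1 and Lcn2 were above all such controls in 13, Cd44 in 12, Krt20 and Spp1 in 11, Vim in 9, Sox9 in 8 and Clu in 7. Among the 14 depleted libraries Lcn2 was above in 13, Sox9 in 9, Spp1 in 7, Clu in 6, Havcr1 in 5, and Krt20, Cd44 and Vim in 3 each. With controls of every age, a choice made after the values were seen, Havcr1 was above in 2 of the 14 and Sox9 in 8, and the other counts, those of ischemia included, were the same. Lcn2 was thus the member that most often exceeded the controls after both stimuli, with a median rise over the control mean of 2.52 on the log2 scale after ischemia and 1.46 after depletion. For Havcr1 these medians were 6.26 and 0.52, and for Krt20 2.92 and -0.25.

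Whole libraries differed in how many markers lay above every control, again without the share over all genes. Male ischemic libraries had 6 to 8 of the 8 members above every control of 5.5 months, in both drivers. Female Atp6v1b1Cre ischemic libraries had 6 to 8, and female Hoxb7Cre ischemic libraries 2 to 5. Depleted libraries had 1 to 6, and 0 to 6 with controls of every age. The 3 depleted male Hoxb7Cre libraries had 5, 6 and 6. In the depleted Atp6v1b1Cre groups the libraries of series B, with 4 to 6 members above, exceeded those of series A, with 1 or 2, or 0 to 2 with controls of every age.

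**Figure D4:**
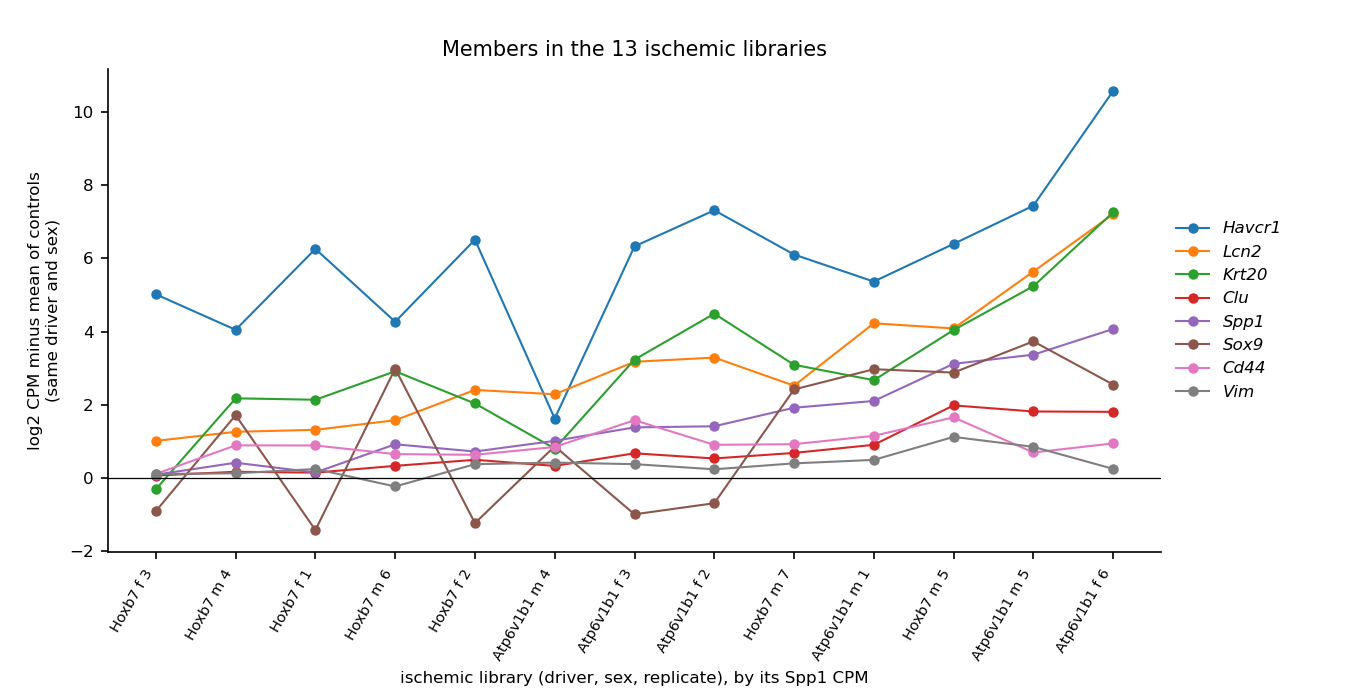
Log2 level of each marker above the mean of its 5.5-month controls in each of the 13 ischemic libraries, ordered by their Spp1 CPM, with a line for each marker. Havcr1 runs from 1.63 to 10.6, Lcn2 climbs with Spp1 toward the right, and Sox9 dips below 0 in 5 of the 6 female libraries.

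Covariation among the members was described by Pearson's r of log2 CPM over their 28 pairs. Over the 48 pulldowns the mean r was 0.505 and all 28 pairs were positive, but these values hold the differences between groups. With the mean of each driver, condition and sex removed, the mean r over 43 libraries was 0.384, with 22 pairs positive, and the mean of Spearman's rho was 0.336. It was 0.494 in 22 males and 0.278 in 21 females. The points share their depth scaling, their library series and the makeup of the dissected kidney, and no test was made of these values.

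The tie between markers within groups was strongest among the 13 ischemic libraries, with a mean r of 0.617. It was 0.0561 among 14 depleted libraries, 0.176 among 16 controls, and 0.0921 among 21 total kidney libraries with the mean of each sex and age removed. These sets differ in counts and in the range of levels. In female Atp6v1b1Cre libraries Havcr1 had 1 to 12 counts in controls, 8 to 26 after depletion and 728 to 10274 after ischemia. The part of counts and range in these r values was not tested, so the sets cannot be ranked by coupling alone. Among the ischemic libraries Lcn2 and Spp1 had an r of 0.98 and a rho of 0.96, and r was 0.97 without the 2 libraries farthest from the median of Lcn2. Clu and Spp1 had an r of 0.96, a rho of 0.96 and 0.96 without the 2 farthest, and Havcr1 and Krt20 0.94, 0.91 and 0.90. Replicate 5 of ischemic Hoxb7Cre males was the highest of its group in 7 of 8 members, replicate 5 of ischemic Atp6v1b1Cre males in 7, and replicate 6 of ischemic Atp6v1b1Cre females in 6. A control did the same, replicate 12 of the Atp6v1b1Cre females, in 7. These Atp6v1b1Cre libraries are each the only series B library of their group and sex. So is replicate 5 of the depleted Atp6v1b1Cre females, the highest of its group in 6 members. The part of library series in this covariation was not tested.

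The members did not take equal part. With group means removed over 43 libraries, the mean r of a member with the other 7 was 0.562 for Spp1, 0.542 for Lcn2, 0.506 for Clu, 0.432 for Sox9, 0.387 for Havcr1, 0.369 for Krt20, 0.287 for Vim and -0.0133 for Cd44. The highest pair was Lcn2 with Spp1, at 0.866, and the lowest Sox9 with Cd44, at -0.151.

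**Figure D5:**
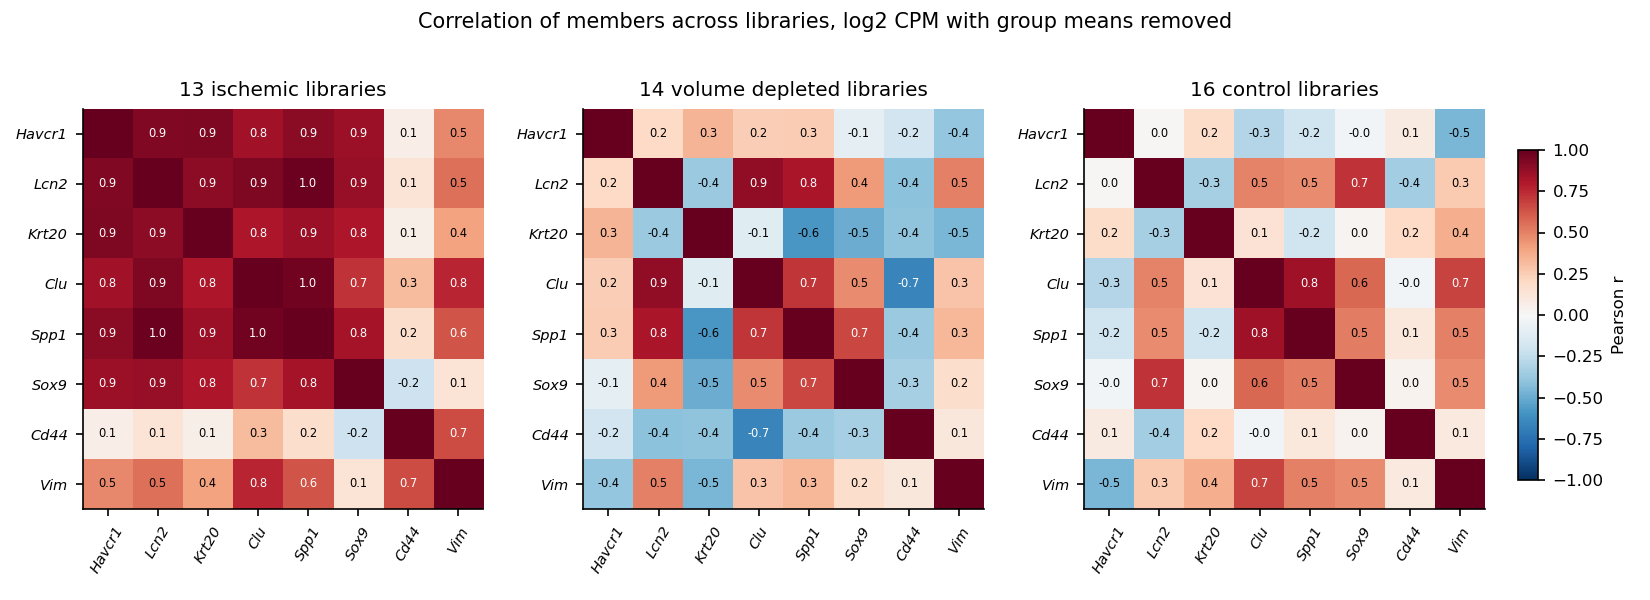
Pearson's r of log2 CPM between the 8 markers with group means removed, as colour, in the ischemic, volume depleted and control pulldowns. The mean over the 28 pairs is 0.617 in 13 ischemic, 0.0561 in 14 depleted and 0.176 in 16 control libraries.

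Other genes were compared by their likeness to each member over the 48 pulldowns among 15130 genes, as a description. Spp1 was closest to Dcdc2a (r = 0.894) and Serpina10 (0.875), and Lcn2 to Fignl1 (0.846), Slc25a24 (0.800) and Dcdc2a (0.798). Dcdc2a was also near Havcr1 (0.783), after Cdc7 (0.785), and Mvp was near Clu (0.784). Krt20 was closest to Timp1 (0.833) and Mlkl (0.829) and Vim to Ifitm3 (0.756), and Kdelr3 was near Sox9 (0.783). Cd44 was closest to Ms4a6d (0.775) and Clec4e (0.765), genes of myeloid cells.

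A wider list of 30 injury genes and a list of 32 binding partners and relatives of the members are given beside these changes. Like the members, they were chosen with earlier results of these data known, so their counts are a description. In Hoxb7Cre males after ischemia, where 1.52% of all genes were called higher, 8 of the 30 were, with a median log2 fold change over the list of 0.72, among them the protease inhibitor Timp1 at 3.35 (SE 0.61, adjusted p = 0.00279), the serpin Serpina10 at 3.02 (SE 0.63, adjusted p = 0.00712) and the cytokine Lif at 2.91 (SE 0.65, adjusted p = 0.00998). Of the partners 5 of 32 were higher, among them the lipoprotein receptor Lrp8 at 1.94 (SE 0.21, adjusted p = 2.57e-05), the Havcr1 relative Havcr2 at 1.60 (SE 0.31, adjusted p = 0.00469) and the osteopontin-binding integrin subunit Itgb6 at 1.41 (SE 0.31, adjusted p = 0.00939). In Atp6v1b1Cre males 10 of the 30 and 1 of the 32 were higher, against 1.14% of all genes. Serpina10 was at 3.96 (SE 0.69, adjusted p = 0.0016), Timp1 at 2.93 (SE 0.59, adjusted p = 0.00468), the calcium-binding S100a6 at 1.90 (SE 0.28, adjusted p = 0.000657) and Lrp8 at 1.52 (SE 0.22, adjusted p = 0.000634).

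After depletion, 10 of the 30 injury genes were higher and 1 lower in Hoxb7Cre males as called, where 9.61% of all genes were called higher and 6.81% lower. They included the chemokine Cxcl1 at 4.78 (SE 0.90, adjusted p = 0.000264), the stress factor Atf3 at 3.81 (SE 0.51, adjusted p = 5.48e-06) and Lif at 3.32 (SE 0.67, adjusted p = 0.000498). Of the partners 10 were higher and 4 lower, with the Sox9 relative Sox11 at 2.56 (SE 0.55, adjusted p = 0.00089), the regulator of Lcn2 transcription Nfkbiz at 1.94 (SE 0.33, adjusted p = 9.23e-05) and the filament gene Nes at 1.82 (SE 0.31, adjusted p = 9.86e-05). In Atp6v1b1Cre males 7 of the 30 rose and 1 fell, where 5.15% of all genes were called in either direction, with Cxcl1 at 3.07 (SE 0.80, adjusted p = 0.0125), Cyr61 at 2.20 (SE 0.39, adjusted p = 0.000892) and the heme-degrading enzyme Hmox1 at -2.57 (SE 0.77, adjusted p = 0.0275). There 3 partners rose and 1 fell, among them Sox11 at 2.07 (SE 0.53, adjusted p = 0.0117), Nfkbiz at 1.59 (SE 0.31, adjusted p = 0.00197) and Timd2 at -1.21 (SE 0.34, adjusted p = 0.0197). Set against each other, the stimuli gave 7 of the 30 higher after ischemia and 7 higher after depletion in Hoxb7Cre, against 6.55% and 8.15% of all genes. In Atp6v1b1Cre they gave 8 and 5, against 4.39% and 7.16% of all genes.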

How the data were processed

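RNA of 69 libraries, 48 of pulled-down tagged RNA and 21 of total kidney, was sequenced on Illumina instruments. The authors trimmed reads with CASAVA 1.8.2 and Trimmomatic 0.36, aligned them to mm10 with STAR 2.5.3a and made counts per gene with HTSeq 0.6.1p2 at default settings, which the authors deposited as raw counts under gene symbols. Default counting drops reads that map to more than 1 place. The annotation is not given in the sources used here.

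From the counts, 21175 of 24411 genes with at least 2 counts over all libraries were tested in R 4.3.3 with edgeR 4.0.16 (TMM scaling, quasi-likelihood test, Benjamini-Hochberg adjustment), and with DESeq2 1.42.0 as an alternative. Males of 5.5 months (22 libraries), females (21), the sexes together (43) and controls (42, sex as covariate) were fitted apart. The standard error of a log2 fold change was taken from it and its F statistic. CPM were scaled by TMM over all 69 libraries, and log2 CPM used a prior count of 2. Levels per kilobase used the exon length of GENCODE vM21. Promoter sequences are RefSeq's. The test of ischemia in Hoxb7Cre males was checked on simulated counts with the same dispersion for every gene. The other comparisons, and the wider spread of single members, were not simulated.

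The members and lists were chosen with earlier results of these data known. All members are named in the main male comparisons and selected ones elsewhere. Of the 2 longer lists, the 3 genes of largest change among those called with a mean of at least 10 counts are given per male comparison, and for likeness up to 3 genes of highest r per member, of which some are not reported here. Of 149 listed genes 148 were in the table.

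Groups came from the sample titles. Replicates are separate libraries of a group, and where the labels do not tie them to separate mice, p-values measure only the spread between libraries. At 12618062 to 30305464 counts a library, this spread (common dispersion 0.0444 in males and 0.0782 in females) outweighs counting error except for members with few counts. Alternatives were DESeq2, its size factors, other filters, no fold threshold, library series, age and sex settings, the replicate number as a block and each library left out, and after the data were seen, series A alone and 2 ischemic Hoxb7Cre libraries of highest Havcr1 left out.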

Additional observations from a re-analysis of the deposited data

Results flagged for a closer look

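In 4 of 56 groups of 4 to 10 libraries, for a member, 1 library stood far from the rest by Dixon's test, which chance does in about 1 group in 20. Clu was at 403 CPM in ischemic male Hoxb7Cre replicate 5, against 115 to 164 CPM in the other 3. Krt20 was at 8.86 CPM in male Atp6v1b1Cre control replicate 9, against 1.07 to 2.34 CPM. Sox9 was at 6.74 CPM in depleted female Hoxb7Cre replicate 5, against 1.53 to 2.38 CPM. Cd44 was at 5.67 CPM in depleted female Hoxb7Cre replicate 1, against 7.92 to 7.96 CPM.

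The response of 3 members differed between the sexes in Hoxb7Cre by edgeR's test of the difference, female minus male. Library series was not a covariate of that fit. Sox9 differed after ischemia by -4.05 (adjusted p = 0.0099) on the log2 scale and after depletion by -2.80 (adjusted p = 0.0279), Havcr1 after depletion by 5.26 (adjusted p = 0.0131) and Vim after depletion by -1.10 (adjusted p = 0.0323).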

How the results depend on the processing

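Of the values of single members under the alternatives, 2085 kept their direction and their side of the threshold, 53 passed it anew, 55 no longer passed and 7 changed direction. The changes of direction were in Vim after ischemia in Hoxb7Cre males without the 2 libraries of highest Havcr1 (-0.042), Havcr1 after depletion in Hoxb7Cre males with both sexes (2.12), Spp1 after depletion in Atp6v1b1Cre males in series A alone (-0.19), and Sox9 after ischemia in females. The last was at 0.64 with the replicate block and 0.016 with library series as a covariate in Hoxb7Cre, and in Atp6v1b1Cre at -1.06 with the block and at -1.04 to 1.56 with 1 library left out each time, the lowest without ischemic replicate 6. None of these was called, and the cause was not tested.

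Counts of members called moved as follows. For ischemia in Hoxb7Cre males (6) they were 3 to 6 with 1 library left out, 3 without ischemic replicate 5, and 2 without the 2 libraries. For depletion there (1) they were 2 with no fold threshold, with library series and in series A alone, and 0 with both sexes, where Sox9 was at 1.37 (adjusted p = 0.0988), and at 0.97 (adjusted p = 0.39) after ischemia. For depletion in Atp6v1b1Cre males (0) they were 0 to 1 with 1 left out and 1 with 25 males. For the stimuli compared in Hoxb7Cre (4) they were 2 to 4 with 1 left out (2 without ischemic replicate 5 or depleted replicate 7), and 2 with both sexes or without the 2 libraries. The driver difference (0 for each stimulus) had 1 for ischemia with both sexes or without the 2 libraries. For depletion it had 1 with DESeq2, 2 with library series, with 25 males and in series A alone, and 0 to 1 with 1 left out (1 without ischemic Atp6v1b1Cre replicate 4).

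In females, ischemia in Hoxb7Cre (1) gave 0 to 2 with 1 left out, 2 without ischemic Atp6v1b1Cre replicate 6. Depletion in Hoxb7Cre (0) gave 1 with DESeq2 and 0 to 1 with 1 left out, and in Atp6v1b1Cre (0) 2 with library series and 0 to 1 with 1 left out, each 1 without ischemic Atp6v1b1Cre replicate 6. Among controls, no fold threshold gave 8 for Atp6v1b1Cre against total kidney (5) and 3 for the drivers compared (1), where females alone gave 0. The mean r of the members was 0.494 in males alone and 0.278 in females alone.

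Pairing of libraries by replicate number was not evident. Of 34 same-numbered pairs in different groups of a sex, 10 had deviations over 15131 genes that correlated above 0.1. Over the 34 the median r was -0.0289 and the highest 0.354, and the median of 350 other pairs was 5.46e-05. The pairs above 0.1 were not counted among the others, so pairing of some libraries is not excluded. With the number as a block, 3 members were called for ischemia in Hoxb7Cre males, 0 in Atp6v1b1Cre males, 0 in females of either driver, 2 for the stimuli compared in Hoxb7Cre males and 0 for either sex difference in Hoxb7Cre. Depth limits Havcr1 in female Atp6v1b1Cre controls, at 1 to 12 counts a library.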
